A study of Homo sapiens with 12 samples.

Results

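The integrated stress response genes around the transcription factor ATF4 were followed after 24 h of drug exposure in MM.1S, a glucocorticoid-sensitive cell line derived from a human multiple myeloma. The set was defined by name and held 10 genes: the transcription factors ATF4, ATF3 and DDIT3, the pseudokinase gene TRIB3, the asparagine synthetase gene ASNS, the glutathione-degrading enzyme gene CHAC1, and the amino acid transporter genes SLC7A11, SLC7A5, SLC3A2 and SLC1A5. Rows were matched to symbols through the platform annotation, and 5 of the 10 (ATF4, ATF3, DDIT3, TRIB3 and ASNS) were measured, each by 1 transcript cluster, out of 14884 genes tested. CHAC1 and the 4 transporter genes were not analysed here, so the data below describe the stress genes and ASNS and give no value for amino acid transport.

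The 12 Affymetrix arrays formed 4 groups of 3. The control group was given vehicle. The PD group was given pomalidomide at 500 nM, which turns the ubiquitin ligase substrate receptor cereblon against the transcription factors IKZF1 and IKZF3, together with the glucocorticoid dexamethasone at 10 nM. The F group was given filanesib at 1 nM, which blocks the mitotic motor kinesin KIF11. By its treatment label it also had dexamethasone at 10 nM, although its title carries the letter F alone. If F had no dexamethasone, effects of pomalidomide and of dexamethasone cannot be told apart in these groups. The FPD group was given all 3 drugs at these doses. All groups are the same cell line in culture, with no marrow stroma, and nothing in the labels tells whether replicates were grown separately, so p-values reflect the variation among these samples, possibly technical.

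ATF4 sits at the centre of the integrated stress response. Kinases that sense lack of amino acids (GCN2, encoded by EIF2AK4), unfolded protein in the endoplasmic reticulum (PERK, EIF2AK3), double-stranded RNA (PKR, EIF2AK2) or lack of haem (HRI, EIF2AK1) phosphorylate the translation factor eIF2alpha, which lowers general protein synthesis and favours translation of the ATF4 messenger RNA. ATF4 protein then raises genes for amino acid synthesis and uptake, for charging of tRNAs and, under lasting stress, for cell death, among them DDIT3, which encodes CHOP. Because ATF4 is controlled largely at translation, its mRNA level does not report its protein level. Plasma cells and myeloma cells secrete much protein and are known to depend on these pathways.

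Expression is given on the log2 scale of the authors' RMA values, and array medians lay between 4.23 and 4.27 over the 53617 rows of the table. Of 10 plasma cell markers fixed for the check of the cell line, 7 were measured and all 7 lay above the array median in every group, with SDC1 at 10.19 ± 0.05 and MZB1 at 11.22 ± 0.07 in control (mean log2 ± SD, n = 3). The summed log2 level of the 7 ran from 67.3 to 67.8 in control, 67.3 to 67.7 in F, 65.1 to 65.8 in PD and 65.2 to 65.5 in FPD. Limma called 2 of the 7 lower in PD and 2 in FPD and none higher, beside 8.63% and 5.89% lower among all genes. These were IRF4 (log2 change against control -1.23 in PD and -1.35 in FPD) and SLAMF7 (-0.48 and -0.54). Of 5 measured myeloid markers at most 2 lay above the array median in any group, with sums between 18.1 and 19.0 over the 12 arrays. The 3 measured T cell markers summed to between 14.1 and 15.1, and 2 of them lay above the array median in every group. The 5 measured stromal and epithelial markers summed to between 26.3 and 28.6, and all 5 lay above the array median in every group. A count above the array median thus does not by itself set plasma cells apart. The stromal and epithelial sum was highest on a PD array (26.5 to 28.6 in PD, 26.7 to 26.9 in control). Of that list limma called PECAM1 alone in PD, beside 6.84% higher among all genes, and none in FPD. PECAM1 was higher in PD than in control (log2 change 0.41, limma adjusted p = 0.0483). The part of these markers in the PD results was not tested. In bulk RNA, fewer cells with a transcript and less of it per cell cannot be told apart.

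ATF4 acts at the C/EBP-ATF response element, whose core was searched as TGATGNAA (N is any base) on both strands in the RefSeq windows of 250 bases before to 50 bases after each annotated start (GRCh38.p14). The core was present in 3.62% of 35116 windows and in 4.46% of 27305 genes with a window. Windows existed for 9 of the 10 listed genes and for all 5 measured ones, and at least 1 window of ASNS and ATF3 held the core among the measured genes. Of the genes without a value here, CHAC1, SLC3A2 and SLC1A5 also held it. These windows are shown because ASNS carries the best known such element, ATF3 held the core and was the member called in PD, and TRIB3 was the member called in FPD. Capitals mark the core, which lay at positions -68 to -61 relative to the ASNS start and -191 to -184 relative to the ATF3 start, both on the strand of the gene. No match means only that these letters are not in this window. The coordinates are those of the RefSeq windows, and the sources used here do not give the build of the array design.
ASNS, chr7:97872359-97872658, minus strand: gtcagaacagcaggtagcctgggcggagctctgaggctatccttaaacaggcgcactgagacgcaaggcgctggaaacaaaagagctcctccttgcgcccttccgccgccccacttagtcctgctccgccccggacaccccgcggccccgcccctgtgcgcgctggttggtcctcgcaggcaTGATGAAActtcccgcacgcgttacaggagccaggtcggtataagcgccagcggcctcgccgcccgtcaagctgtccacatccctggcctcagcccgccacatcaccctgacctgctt
ATF3, chr1:212565157-212565456, plus strand: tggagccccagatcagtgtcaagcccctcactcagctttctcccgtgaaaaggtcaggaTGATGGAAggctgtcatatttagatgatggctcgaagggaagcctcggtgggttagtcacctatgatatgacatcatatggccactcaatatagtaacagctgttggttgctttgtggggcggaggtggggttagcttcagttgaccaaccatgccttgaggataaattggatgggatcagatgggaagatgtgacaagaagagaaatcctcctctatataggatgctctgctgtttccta
TRIB3, chr20:381045-381344, plus strand, no match: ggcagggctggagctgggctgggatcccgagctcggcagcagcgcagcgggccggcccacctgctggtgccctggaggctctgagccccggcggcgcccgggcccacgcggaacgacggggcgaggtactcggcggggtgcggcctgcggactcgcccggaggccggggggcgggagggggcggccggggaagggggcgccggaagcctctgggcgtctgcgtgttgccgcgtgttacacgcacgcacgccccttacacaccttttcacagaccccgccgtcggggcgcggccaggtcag

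ATF4, the transcription factor itself, was nearly level across the 4 groups. It measured 9.22, 9.06 and 9.15 on the control arrays, 9.30, 9.20 and 9.23 on the F arrays, 9.02, 9.02 and 9.14 on the PD arrays and 9.02, 8.96 and 9.04 on the FPD arrays (log2). The FPD arrays lay below every control array and every F array, and the PD and control arrays overlapped. The log2 change was -0.09 in PD (95% interval -0.27 to 0.09, limma, Benjamini-Hochberg adjusted p = 0.599) and -0.14 in FPD (95% interval -0.32 to 0.04, limma adjusted p = 0.361), both against control. In F it was 0.10 (95% interval -0.08 to 0.28, limma adjusted p = 0.916). The widest gap was that between FPD and F, -0.24 (95% interval -0.42 to -0.05), which did not pass the threshold of 0.05 (limma adjusted p = 0.0806). This gap was called with arrays centred on the gene median (log2 change -0.26, limma adjusted p = 0.0475), when the dimmer genes were left out (0.0428) and with a variance trend (0.0413). The RefSeq table lists 4 pseudogenes named for ATF4 and 5 for ASNS, whose transcripts could share probes with these genes.

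**Figure D1:**
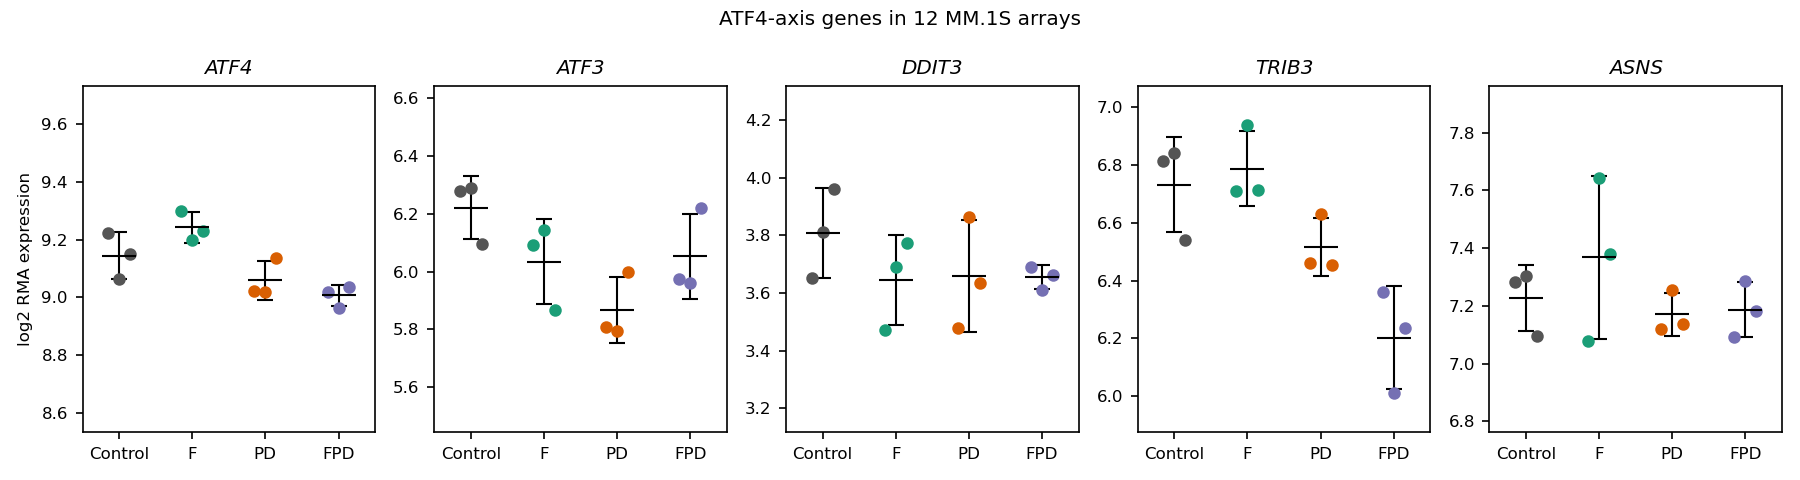
Log2 RMA expression of ATF4, ATF3, DDIT3, TRIB3 and ASNS on each of the 12 arrays, by group (points, arrays; horizontal bars, group means; error bars, SD, n = 3); all panels span the same range of log2 units. TRIB3 lies at 6.01 to 6.36 on the FPD arrays, below all other arrays, whereas ASNS and DDIT3 overlap between all groups.

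TRIB3, a pseudokinase gene that ATF4 and CHOP induce and whose product restrains AKT signalling and ATF4 itself, was the member with the clearest decrease. It measured 6.81, 6.84 and 6.54 in control, 6.71, 6.94 and 6.71 in F, 6.46, 6.63 and 6.45 in PD, and 6.36, 6.01 and 6.24 in FPD. All 3 FPD arrays lay below all 9 others, while F and control overlapped, as did PD and control. In FPD it fell by 0.53 against control (SE 0.11, fold 1.44 lower, 95% interval of the log2 change -0.77 to -0.29, limma adjusted p = 0.00505). Against F, TRIB3 in FPD fell by 0.59 (SE 0.11, fold 1.5 lower, 95% interval -0.83 to -0.34, limma adjusted p = 0.0023). Over the alternative settings of these comparisons, 14 each, both stayed past the threshold, with limma adjusted p from 0.00198 to 0.0341 against control and from 0.000837 to 0.0176 against F.

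The order of the TRIB3 means was F (6.79 ± 0.13), control (6.73 ± 0.17), PD (6.52 ± 0.10) and FPD (6.20 ± 0.18; mean log2 ± SD, n = 3). No pair of neighbours in that order passed the test. The log2 change from control to PD was -0.22 (95% interval -0.46 to 0.03, limma adjusted p = 0.253) and that from PD to FPD -0.31 (95% interval -0.56 to -0.07, limma adjusted p = 0.446). A further decrease of TRIB3 from PD to FPD was thus not shown, although all 3 FPD arrays lay below all 3 PD arrays.

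ATF3, a stress-induced transcription factor of the ATF/CREB family, was lowest in PD. It measured 6.28, 6.29 and 6.10 in control, 6.09, 6.14 and 5.87 in F, 5.81, 5.80 and 6.0 in PD, and 5.98, 5.96 and 6.22 in FPD. The PD arrays lay below the control arrays, and F and FPD each overlapped both. ATF3 in PD fell by 0.36 against control (SE 0.11, fold 1.28 lower, 95% interval of the log2 change -0.58 to -0.13, limma adjusted p = 0.0344). The call was lost when 1 of 4 arrays was removed before the limma fit. The adjusted p was 0.104 and 0.115 without control replicates 1 and 2, and 0.103 and 0.114 without PD replicates 1 and 2. It was also lost when all rows of the table were tested (limma adjusted p = 0.0895) or with the compared arrays alone (0.0507). In FPD the log2 change of ATF3 was -0.17 (95% interval -0.40 to 0.06, limma adjusted p = 0.386) and in F -0.19 (95% interval -0.42 to 0.04, limma adjusted p = 0.874). The gap between FPD and PD was 0.19 (95% interval -0.04 to 0.42, limma adjusted p = 0.659), so a lower ATF3 in PD than in FPD was not shown.

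DDIT3, which encodes the death-promoting factor CHOP, lay below the array medians in every group. It measured 3.65, 3.81 and 3.96 in control, 3.47, 3.69 and 3.77 in F, 3.48, 3.86 and 3.63 in PD, and 3.69, 3.61 and 3.66 in FPD. All groups overlapped. No detection call was used here, so whether the transcript was above background was not tested. The log2 change against control was -0.15 in PD (95% interval -0.39 to 0.10, limma adjusted p = 0.475), -0.16 in F (95% interval -0.41 to 0.08, adjusted p = 0.903) and -0.15 in FPD (95% interval -0.40 to 0.09, adjusted p = 0.481).

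ASNS, the enzyme that makes asparagine and a standard readout of amino acid deprivation, did not pass the test in any comparison. It measured 7.28, 7.30 and 7.10 in control, 7.08, 7.64 and 7.38 in F, 7.12, 7.26 and 7.14 in PD, and 7.09, 7.29 and 7.18 in FPD. The F arrays were the most spread, and their range contained every array of the other 3 groups. The log2 change against control was -0.06 in PD (95% interval -0.32 to 0.20, limma adjusted p = 0.839), 0.14 in F (95% interval -0.12 to 0.40, adjusted p = 0.916) and -0.04 in FPD (95% interval -0.30 to 0.22, adjusted p = 0.897). The order of means was F (7.37 ± 0.28), control (7.23 ± 0.11), FPD (7.19 ± 0.10) and PD (7.17 ± 0.07; mean log2 ± SD, n = 3), with neighbours closer than their spread.

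**Figure D2:**
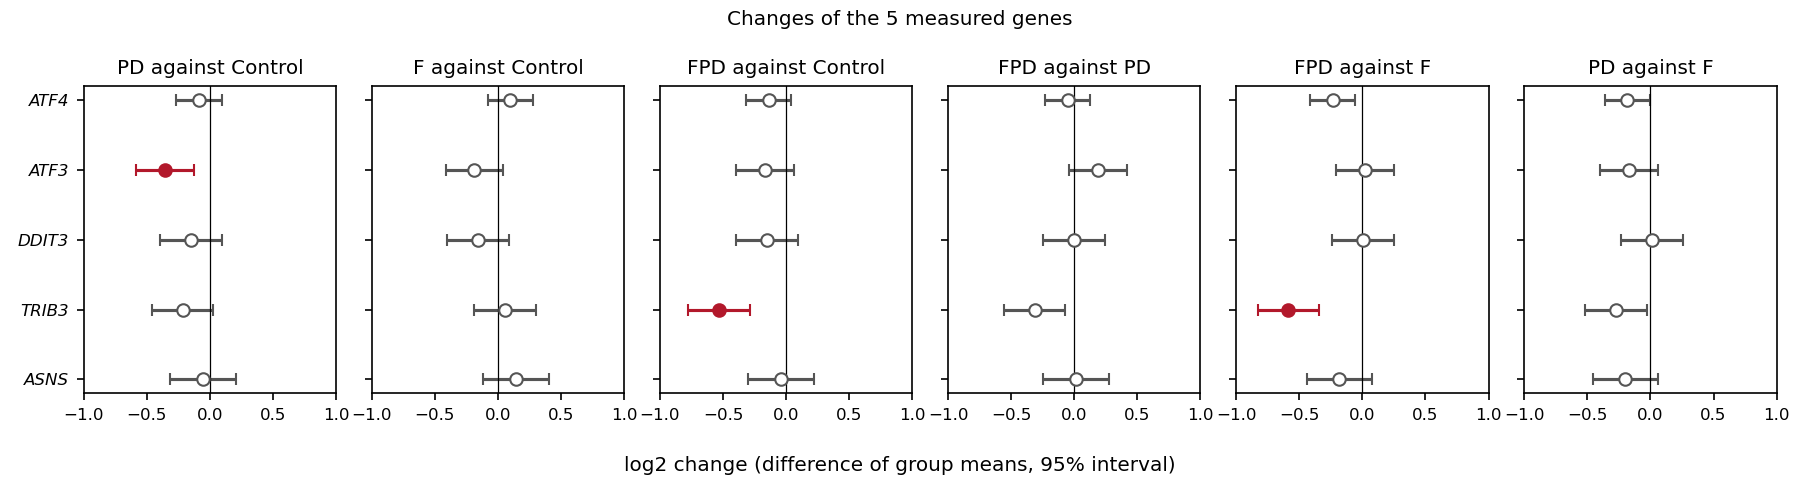
Log2 change of each measured gene in 6 pairwise comparisons (points, difference of group means; bars, 95% intervals from limma, 3 arrays per group; filled red, adjusted p under 0.05). TRIB3 is called in FPD against control (-0.53) and against F (-0.59), ATF3 in PD against control (-0.36), and the other intervals are open symbols.

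In PD against control 1 of the 5 genes fell and none rose, where 15.5% of all genes were called, 6.84% higher and 8.63% lower. In FPD against control 1 of 5 fell and none rose, where 13.1% of all genes were called, 7.26% higher and 5.89% lower. In FPD against F 1 of 5 fell, where 14.1% of all genes were called and 6.64% were lower. A count of 1 in 5 is near the background in each of these comparisons. Arrays lay wholly below those of the other group for 1 of 5 genes in PD against control (15.8% of all genes), 2 in FPD against control (15.5%), 2 in FPD against F (15.2%), 2 in PD against F (16.4%) and 1 in FPD against PD (6.35%). All 5 had a negative log2 change in PD and in FPD, with medians of -0.15 in both against medians of -0.0027 and -0.016 over all genes, but these comparisons share the 3 control arrays.

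In F against control none of the 5 genes passed the limma test, where 0.00672% of all genes were called. None had an unadjusted p under 0.05 there (6.01% of all genes) or arrays apart from control (10% of all genes). In FPD against PD none passed, where 0.0336% of all genes were called, and 1 of 5 (TRIB3) had an unadjusted limma p under 0.05, beside 8.62% of all genes. In PD against F, which both carry dexamethasone by their treatment labels, none passed, where 17.3% of all genes were called. ATF4 (log2 change -0.18, limma adjusted p = 0.17) and TRIB3 (-0.27, adjusted p = 0.126) were the 2 with an unadjusted p under 0.05 there, beside 28.2% of all genes.

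The departure from additivity compares the change in FPD with the sum of the changes in PD and in F, all against control. Limma called it in 0 of the 5 genes and in 0% of all genes, where 5.6% of all genes had an unadjusted p under 0.05. Among the 5, TRIB3 (-0.37, 95% interval -0.71 to -0.02, limma adjusted p = 0.888) and ATF3 (0.37, 95% interval 0.05 to 0.70, adjusted p = 0.888) had an unadjusted p under 0.05, in opposite directions. A negative value, as for TRIB3, means a lower level in FPD than that sum, and a positive value, as for ATF3, a higher one. By the treatment labels both PD and F had dexamethasone and control had none. The sum then holds any dexamethasone effect more often than the change in FPD does. These values therefore cannot tell a departure from additivity of filanesib and pomalidomide from an effect of dexamethasone.

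**Figure D3:**
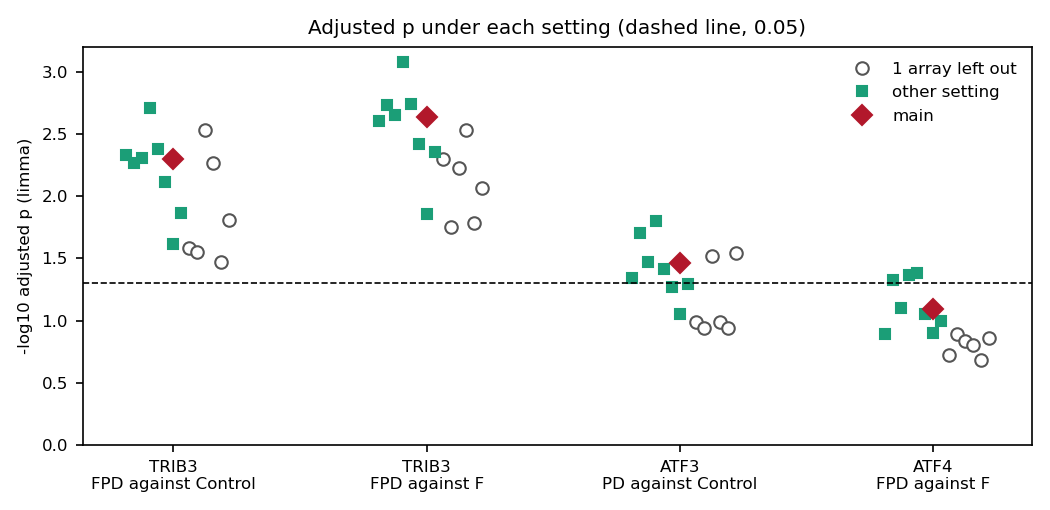
Strength of 4 member results under each setting of the analysis, as -log10 of the limma adjusted p (red diamond, value as reported; green squares, other settings; open circles, 1 array left out; dashed line, 0.05). TRIB3 stays above the line in both comparisons, whereas ATF3 in PD and ATF4 in FPD against F cross it.

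Upstream of ATF4, EIF2AK4, which encodes the amino acid sensor kinase GCN2, rose in PD and FPD. It measured 6.85, 6.83 and 6.85 in control, 6.85, 6.68 and 7.02 in F, 8.16, 8.05 and 8.0 in PD, and 8.02, 8.09 and 8.13 in FPD. All 6 PD and FPD arrays lay above all 6 control and F arrays. The log2 change was 1.22 in PD (SE 0.10, fold 2.34, limma adjusted p = 5.23e-07) and 1.23 in FPD (SE 0.10, fold 2.35, limma adjusted p = 4.9e-07). EIF2AK2 fell by 0.32 in PD (limma adjusted p = 0.0475), a call lost when any 1 of control replicates 1, 2 and 3 and PD replicates 2 and 3 was left out (adjusted p from 0.0505 to 0.2), on renormalization by quantiles (0.117), with all rows tested (0.108) and with the compared arrays alone (0.0949). EIF2AK3 had a log2 change of -0.07 and EIF2AK1 of 0.09 in PD (limma adjusted p = 0.738 and 0.586). Of the 18 listed kinases, eIF2 regulators and ATF4 partners 6 were measured, and EIF2AK4 and EIF2AK2 were the 2 called in PD, with EIF2AK4 alone in FPD, beside 15.5% and 13.1% of all genes. In F none was called by limma, and 1 had an unadjusted p under 0.05, beside 0.00672% and 6.01% of all genes.

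Downstream, lists of tRNA-charging and serine genes, many of which ATF4 is known to raise, were counted. Of 17 measured aminoacyl-tRNA synthetase genes, whose enzymes load tRNAs with amino acids, 8 fell in PD and none rose (median log2 change -0.27), beside the 8.63% lower among all genes, and the other 9 did not pass the test. They were led by YARS1 (-0.63, limma adjusted p = 0.000227), VARS1 (-0.57, adjusted p = 0.00238) and IARS1 (-0.54, adjusted p = 0.000356). YARS1 measured 7.87, 7.93 and 7.91 in control, 7.84, 7.84 and 7.67 in F, 7.39, 7.15 and 7.27 in PD, and 7.31, 7.17 and 7.36 in FPD. The PD and FPD arrays did not overlap the control and F arrays. In FPD 7 fell and none rose (median -0.29), beside 5.89% lower among all genes. Over the alternative settings the number of synthetase genes that fell ran from 8 to 9 in PD and from 5 to 10 in FPD. In F none passed the test, also not at an unadjusted limma p under 0.05 (median 0.03), beside 0.00672% and 6.01% of all genes. Of 6 measured serine and one-carbon enzyme genes 5 fell in PD and 4 in FPD, and none rose, beside 8.63% and 5.89% lower among all genes. They were led in PD by PSAT1 (-1.39, limma adjusted p = 1.57e-06), MTHFD1L (-0.87) and PHGDH (-0.62), enzymes of serine synthesis and mitochondrial folate metabolism. In FPD PSAT1 fell by 1.37 (limma adjusted p = 1.95e-06). Over the alternative settings the number of serine and one-carbon genes that fell ran from 4 to 5 in PD and from 3 to 5 in FPD. In F none of the 6 passed the test, also not at an unadjusted limma p under 0.05, beside 0.00672% and 6.01% of all genes. With so few genes called in F, a count of none does not set this list apart.

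The 21 measured members of a further list of ATF4 targets did not move one way. In PD 3 rose, DDIT4 (4.46), KLHL24 (0.91) and VLDLR (0.39), and 2 fell, VEGFA (-0.89) and SQSTM1 (-0.36), with a median log2 change of -0.014 (limma, adjusted p under 0.05 for each), beside 6.84% higher and 8.63% lower among all genes. DDIT4, an inhibitor of mTOR signalling, is also a glucocorticoid target. In F it measured 5.97 ± 0.11, beside 5.99 ± 0.08 in control (mean log2 ± SD, n = 3). That log2 change was -0.03 (limma adjusted p = 0.978), and whether the F arrays had dexamethasone was not tested. The VLDLR call in PD was lost without control replicate 1, 2 or 3 or PD replicate 2 (limma adjusted p from 0.0529 to 0.156), with all rows tested (0.0867) and with the compared arrays alone (0.0585), and that of SQSTM1 without control replicate 2 or either of PD replicates 1 and 2 (adjusted p from 0.0551 to 0.071). In FPD 4 rose, DDIT4 (4.62), KLHL24 (0.73), VLDLR (0.40) and SESN2 (0.38), and 2 fell, VEGFA (-0.69) and PYCR1 (-0.42), beside 7.26% higher and 5.89% lower among all genes. The VLDLR call in FPD was lost when any 1 array of control or FPD was left out (limma adjusted p from 0.0538 to 0.111) and with all rows tested (0.086). The 4 became 2 without control replicate 1 or 3 or FPD replicate 1 or 3, 3 without control replicate 2 or FPD replicate 2, and the 2 became 1 without control replicate 1 or FPD replicate 2 or 3. In F none of the 21 passed the test, and 1 had an unadjusted limma p under 0.05, beside 0.00672% and 6.01% of all genes. None of the 28 other amino acid transporter genes listed was analysed here.

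**Figure D4:**
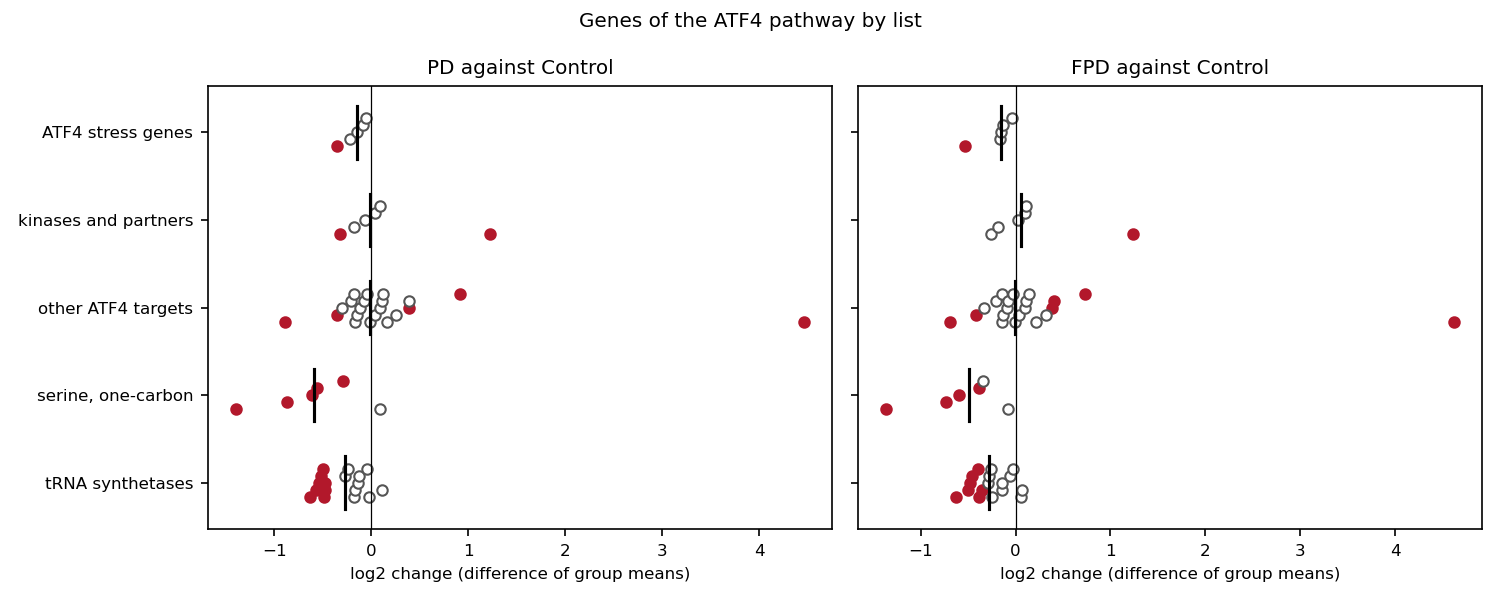
Log2 change of each measured gene of 5 lists in PD (left) and FPD (right) against control (points, genes; filled red, limma adjusted p under 0.05; black bars, list medians). The medians of the synthetase and serine lists lie to the left of 0, at -0.27 and -0.59 in PD, whereas the list of ATF4, ATF3, DDIT3, TRIB3 and ASNS has a median of -0.15.

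**Figure D5:**
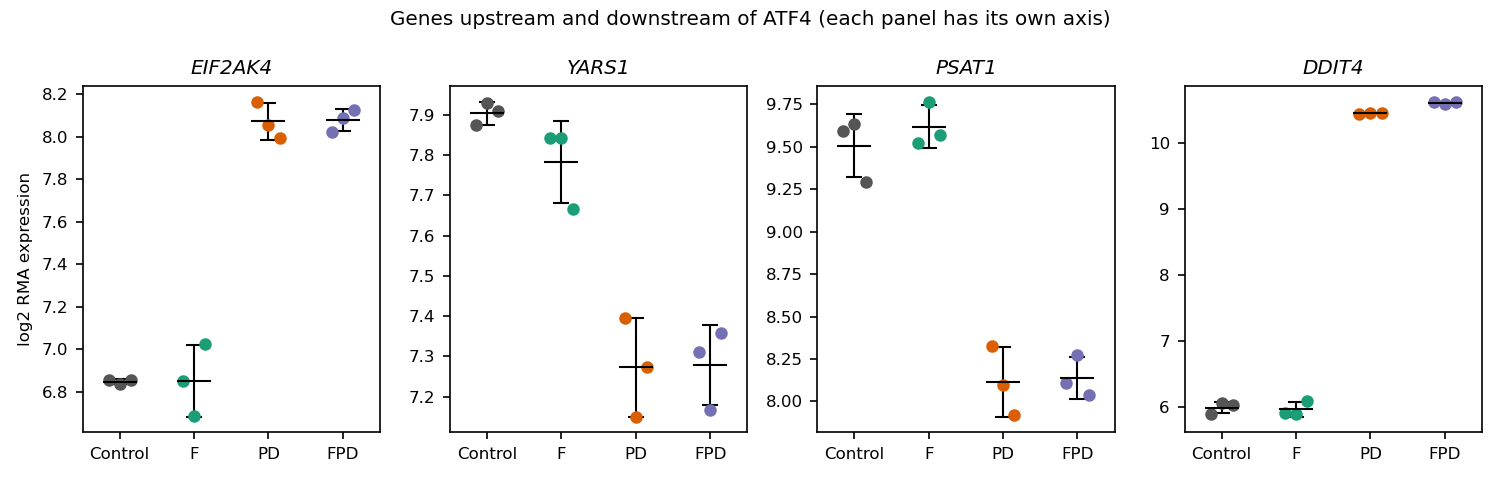
Log2 RMA expression of EIF2AK4, YARS1, PSAT1 and DDIT4 on each array, by group (points, arrays; horizontal bars, group means; error bars, SD, n = 3); each panel has its own scale. PD and FPD arrays stand apart from control and F arrays in all 4 genes, upwards for EIF2AK4 and DDIT4 and downwards for YARS1 and PSAT1.

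The genes whose profiles over the 12 arrays were most like those of ASNS and ATF3 were ranked among 7136 genes above the median mean, after the measured members, small RNAs and unnamed loci were left out. For ASNS they were CEPT1 (Pearson r = 0.959), TMEM126B (0.933), TRAPPC2L (0.916), POMP (0.895) and TADA1 (0.89), none of which was called in any comparison. For ATF3 they were NOP9 (0.935), TRMT44 (0.908), EMID1 (0.906), SLC66A1 (0.906) and APLP2 (0.889), of which TRMT44 (-0.38, limma adjusted p = 0.0158) and EMID1 (-0.58, adjusted p = 0.00342) fell in PD. These are the top values of a ranking over 12 arrays that share 4 groups, given as a description.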

How the data were processed

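The authors deposited log2 expression values. The submitters' processing notes name RMA and the Affymetrix Expression Console. The sources used here give no versions. RMA sets all arrays to a common distribution, so a change in total RNA per cell would not show, and it compresses low signals. With 3 arrays in each group, their number limits the precision.

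Of 53617 rows, 16098 carried 1 gene symbol. For genes with several rows the row with the highest mean was kept, giving 14884 genes, tested with no filter. All 12 arrays entered 1 limma model (version 3.58.1, R 4.3.3, two-sided moderated tests) with a mean for each group. The Benjamini-Hochberg adjustment ran over the whole gene table, and genes below 0.05 after it count as called. The fit was also run on simulated data with independent normal noise, and the outcome of that run is not given here.

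The members and lists were chosen with earlier results of these data known. Named genes are all measured members, from each other list the genes called in PD (at most the 3 highest and 3 lowest changes), and the 5 genes most like ASNS and like a second member, for which ATF3 stood in as SLC7A5 had no value here. EIF2AK1, EIF2AK3, SESN2, PYCR1, ERN1, ATF6 and the plasma cell markers SDC1 and MZB1 were named outside that rule, after their values were seen. Promoters came from RefSeq (GRCh38.p14). Alternatives covered scaling, rows, filtering, arrays fitted, variance trend, a replicate block and leaving out each array.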

Additional observations from a re-analysis of the deposited data

How the results depend on the processing

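The calls of TRIB3 in FPD, against control and against F, held in all 14 alternatives of each. The count of members called in PD against control, 1 (ATF3), was 0 with the replicate block, with all rows tested and with the compared arrays alone, and ran from 0 to 1 when arrays were left out. The count in FPD against F, 1, was 2 with arrays centred on the gene median, among genes above the median mean and with a variance trend, ATF4 being the second, and stayed at 1 when arrays were left out. The counts of the other 5 comparisons did not change in any alternative.

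Sign changes occurred only in values that never passed the test. With arrays centred on the gene median, the log2 change of ATF3 in FPD against F was -0.012, and those of DDIT3 were 0.022 in FPD against PD, -0.020 in FPD against F and -0.042 in PD against F. With quantile normalization again, those of DDIT3 and ASNS in FPD against PD were 0.0040 and -0.041. With 1 array left out, the range was -0.067 to 0.072 for ATF3 in FPD against F, and for DDIT3 -0.094 to 0.099 in FPD against PD, -0.078 to 0.073 in FPD against F and -0.090 to 0.10 in PD against F. It was -0.040 to 0.11 for TRIB3 in F against control, and for ASNS -0.11 to 0.0065 in FPD against control, -0.033 to 0.064 in FPD against PD and -0.27 to 0.014 for the departure from additivity.

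Whether the replicate numbers pair the arrays was not settled. Deviations of same-numbered arrays correlated at -0.26 to 0.16 (median 0.017), and 5 of 18 such pairs exceeded 0.1. Differently numbered arrays correlated at -0.20 to 0.23 (median -0.013), and 5 of 36 such pairs exceeded 0.1. Same-numbered F and FPD arrays correlated at 0.12, 0.08 and 0.12, and same-numbered control and PD arrays at -0.26, -0.006 and -0.07. With the replicate block, ATF3 and EIF2AK2 in PD had limma adjusted p of 0.0536 and 0.0668, and the genes called over the whole table in PD numbered 2277 against 2302. In PD against F, 1106 genes were higher and 1475 lower, and with quantile normalization again 1368 and 1186, and with centring 862 and 1837. In PD against control the numbers were 1018 and 1284, with quantile normalization 1157 and 1081, and with centring 865 and 1458. DDIT3 was too dim to be tested among genes above the median mean.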

Other observations

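Outside the ATF4 arm, genes of the IRE1 and ATF6 arms of the unfolded protein response, which raise chaperones and degradation factors of the endoplasmic reticulum, were counted in the same way. Of 11 measured, 6 fell and 1 rose in PD (median log2 change -0.28), beside 8.63% lower and 6.84% higher among all genes. SEL1L, a component of the machinery that removes misfolded proteins, fell from 10.00 ± 0.04 in control to 9.05 ± 0.11 in PD and 9.20 ± 0.09 in FPD (mean log2 ± SD, n = 3, limma adjusted p = 2.98e-06 and 1.9e-05). SDF2L1 (-0.37) and the chaperone gene CALR (-0.35) also fell in PD, and ATF6B rose in PD and FPD (0.39 and 0.34). The SDF2L1 call was lost without control replicate 1, 2 or 3 or PD replicate 1 or 3 (limma adjusted p from 0.0513 to 0.125), with quantile normalization again (0.071), with all rows tested (0.0807) and with the compared arrays alone (0.0558). The CALR call was lost without PD replicate 1 (limma adjusted p = 0.0599). Of the 6, between 2 and 4 passed the test when 1 array was left out, 2 of them without control replicate 1 or PD replicate 1, so this count rests on single arrays. In FPD SEL1L and ATF6 fell and ATF6B and ERN1 rose, beside 5.89% lower and 7.26% higher among all genes. The 2 that rose became 1 without control replicate 1 or 2 or any 1 of the FPD replicates. In F none passed the limma test, with 1 at an unadjusted p under 0.05, beside 0.00672% and 6.01% of all genes.

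Of 5 measured glutathione and thioredoxin genes, 2 rose and 2 fell in PD, beside 6.84% higher and 8.63% lower among all genes. GPX1, which encodes a glutathione peroxidase, rose from 6.29 ± 0.05 in control to 6.92 ± 0.11 in PD and 6.86 ± 0.11 in FPD (mean log2 ± SD, n = 3, limma adjusted p = 0.000198 and 0.000536). TXNRD1, which encodes thioredoxin reductase, fell from 7.65 ± 0.07 to 7.15 ± 0.12 and 7.19 ± 0.08 (limma adjusted p = 0.00139 and 0.00334). GSS rose (0.32) and GSR fell (-0.45) in PD. The GSS call in PD was lost without control replicate 2 or 3 or PD replicate 2 or 3 (limma adjusted p from 0.0692 to 0.112). It was also lost with all rows tested (0.061) and with the compared arrays alone (0.0789). The GSR call in PD was lost without PD replicate 2 (0.0663).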
